A study of Mus musculus with 8 samples.

Results

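The response of hepatic macrophages from steatotic livers to cholesterol crystals (CC) was described from the 2 CC libraries and the 2 vehicle (Veh) libraries labelled steatotic, out of 8 RNA-seq libraries in the series. A gene was described when it reached 0.5 CPM (its counts scaled to the total of the library) in at least 2 of these 4 libraries, which 14040 of the 55401 genes in the table did. Of the genes described, 227 passed through the CC libraries alone and 104 through the Veh libraries alone, so a difference was built into the choice of those genes. The other 4 libraries, macrophages from normal livers with Veh or CC (n = 2 each), entered the fit to share an estimate of spread and served for a test of whether the response differed between the livers.

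The macrophages labelled steatotic came from MC4R-KO mice on the C57BL/6J background kept on a Western diet (6 to 10 weeks by the design text). These mice lack the melanocortin 4 receptor, a hypothalamic receptor that restrains food intake. The normal livers came from wild-type mice of that background on a standard diet, so genotype and diet cannot be told apart between the livers. Every group was isolated from the non-parenchymal fraction of the liver with an antibody to F4/80, a surface protein of mouse macrophages encoded by Adgre1, and magnetic separation. Cells were seeded on collagen-coated plates in serum-containing medium and received CC at 500 µg/ml or Veh for 24 h. The labels do not say whether the libraries of a group came from separate animals, pools or wells, so each p-value measures only the spread between these libraries. The study's methods name male mice aged 8 weeks at the start of its longer feeding experiments, and the age and sex of the animals behind these libraries are not stated separately.

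Macrophages take up free cholesterol and cholesterol crystals into lysosomes, which are acidified by a proton pump and carry cholesterol out through dedicated transport proteins. Cholesterol that reaches other membranes restrains the SREBP2 program of sterol synthesis, and its oxidized forms activate the LXR receptors, which drive efflux genes such as Abca1. Damaged or overloaded lysosomes activate the MiT/TFE transcription factors and can lead to inflammasome assembly. In fatty livers, resident macrophages named Kupffer cells are partly replaced by recruited cells, and macrophages that carry Trem2, Cd9, Gpnmb and Spp1 gather around dying hepatocytes and scars.

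The targeted gene, Mc4r, had 0.410 and 0.299 CPM in the Veh libraries labelled steatotic and 0.808 and 0.966 CPM in the CC libraries, with 0 counts in all 4 normal libraries. Reads at this gene in the libraries labelled MC4R-KO go against a plain reading of the label, and whether the disrupted allele gives such reads was not tested. The libraries held 65584114 to 74529462 counts in the 4 steatotic libraries, and replicates correlated at a Pearson r of 0.985 across genes in each group. F4/80 itself (Adgre1) was at 1739 and 1730.0 CPM with Veh and 1055 and 1115 CPM with CC, and all 12 pan-macrophage markers were described. Albumin (Alb) was at 1.92 and 1.24 CPM with Veh and 1.86 and 2.31 CPM with CC. Mitochondrially encoded transcripts made up 1.44% and 1.46% of counts with Veh and 1.13% and 1.07% with CC.

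CC raised 1791 genes (12.8% of those described) and lowered 1643 (11.7%) by edgeR's quasi-likelihood test with Benjamini-Hochberg adjusted p under 0.05. Without Veh replicate 2, the counts were 1263 and 1059. Below, "rose" and "fell" are used of genes that passed this test, and fold changes are on the log2 scale as CC minus Veh, with the standard error (SE) of the fit. Counts of called list members are to be read against the shares of 12.8% and 11.7% over all genes described. The call was asymmetric at large sizes: 502 genes (3.58%) rose more than 2-fold and 225 (1.6%) fell more than 2-fold, and 172 against 30 passed 4-fold. Of the 502, 93 had passed the expression filter through the CC libraries alone, and of the 225, 10 had passed through the Veh libraries alone. Over all genes described, the median log2 fold change was -0.00415. Both CC libraries lay above both Veh libraries for 4142 genes (29.5%) and below both for 4773 (34%). Protein-coding genes were called at 13.6% raised and 13.1% lowered, long noncoding genes at 13.9% raised and 4.38% lowered.

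**Figure D1:**
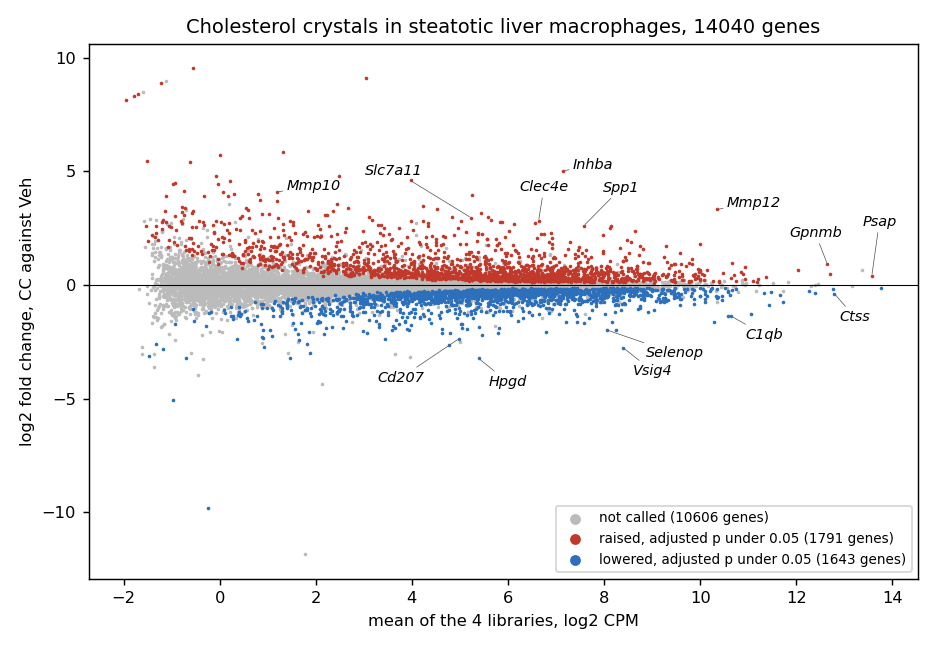
Mean log2 CPM over the 4 steatotic libraries (horizontal axis) against the log2 fold change with CC (vertical axis), one point per gene described, with raised and lowered genes coloured. Named genes such as Inhba, at a log2 fold change of 5.02, and Hpgd, at -3.23, mark the extremes among well expressed genes, predicted genes left out.

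Predicted genes were left out of the rankings of the largest log2 fold changes. The largest increase among well expressed genes was that of Inhba, which encodes the subunit of activin A, a TGF-beta family ligand. It lies on chromosome 13, bases 16011851 to 16031621, plus strand (GRCm38, GENCODE M21). Inhba went from 9.82 and 7.28 to 312 and 237 CPM, a 32.5-fold increase (log2 fold change 5.02 (SE 0.25), adjusted p = 0.000125). Both CC libraries lay far above both Veh libraries. Mmp12, macrophage metalloelastase (chromosome 9, bases 7344381 to 7369499, plus strand), went from 247 and 229.8 to 2579.7 and 2161 CPM, 10.1-fold (adjusted p = 4.26e-06). Dcbld2, a neuropilin-like membrane protein, rose from 5.58 and 3.76 to 82.0 and 60.2 CPM (log2 3.95 (SE 0.269)). The neutrophil-attracting chemokines Cxcl3 and Cxcl2 rose together, Cxcl3 from 11.4 and 10.3 to 90.2 and 80.9 CPM and Cxcl2 from 13.0 and 11.3 to 92.8 and 81.7 CPM. The MAP kinase phosphatase gene Dusp4 rose from 6.05 and 6.84 to 55.8 and 45.9 CPM, and the cystine importer gene Slc7a11 rose from 9.29 and 7.91 to 67.0 and 65.8 CPM. Clec4e, which encodes Mincle, a receptor that senses dead cells and mycobacterial glycolipids, rose from 25.2 and 24.6 to 169 and 179 CPM with little spread between replicates (log2 2.82 (SE 0.0487), adjusted p = 2.47e-07). The remaining genes among the 12 largest increases were Serpinb9b, a serpin of the granzyme inhibitor clade (log2 3.47), Usf3 (3.33), the inhibitory ligand gene Cd200 (3.19) and the circadian repressor gene Bhlhe41 (2.83). Usf3 lost its call in a fit of the 4 steatotic libraries alone (highest adjusted p 0.165).

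**Figure D2:**
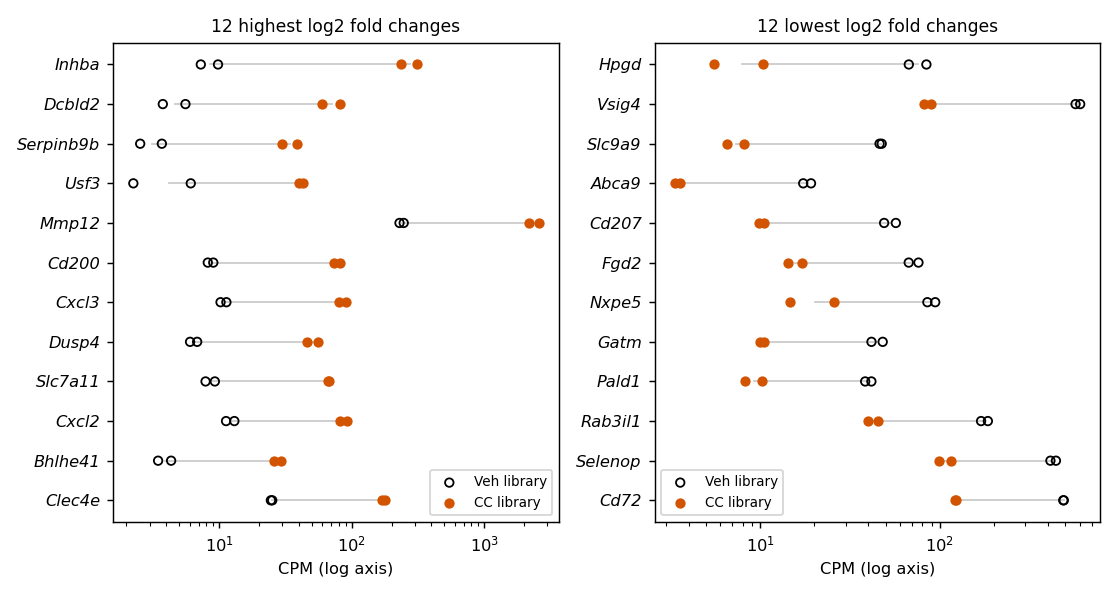
CPM in each of the 4 steatotic libraries (log axis) for the genes with the largest changes in each direction; points are libraries and grey lines join the group means. The genes were chosen by the size of their change, with predicted genes left out, and values run from Inhba (Veh 9.82 and 7.28, CC 312 and 237) to Cd72 (Veh 490.3 and 487, CC 123 and 122).

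The largest decrease among well expressed genes was that of Hpgd, the enzyme that inactivates prostaglandins (chromosome 8, bases 56294585 to 56321043, plus strand), which fell from 67.3 and 84.3 to 5.55 and 10.4 CPM, 9.37-fold (log2 -3.23 (SE 0.321), adjusted p = 0.00206). Vsig4, the complement receptor of the immunoglobulin family found on Kupffer cells (chromosome X, bases 96247203 to 96293438, minus strand), fell from 569.9 and 605 to 82.1 and 89.5 CPM, 6.76-fold (adjusted p = 1.11e-06). For both, the 2 CC libraries lay below the 2 Veh libraries by a wide margin. Slc9a9, an endosomal sodium-proton exchanger gene, fell from 46.3 and 47.5 to 6.59 and 8.16 CPM. The transporter gene Abca9 had a log2 fold change of -2.39, Cd207, which encodes the lectin langerin, -2.36, and Fgd2, an activator of the GTPase Cdc42, -2.18. Selenop, the secreted selenium carrier, fell from 413 and 443 to 99.0 and 115 CPM (3.95-fold) and Cd72, a C-type lectin co-receptor gene, fell from 490.3 and 487 to 123 and 122 CPM (3.93-fold). Gatm, the first enzyme of creatine synthesis (-2.12), Rab3il1 (-2.05), Pald1 (-2.10) and Nxpe5 (-2.13) completed the 12. The call for Nxpe5 was lost in the fit of the 4 steatotic libraries alone (highest adjusted p 0.152).

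By absolute difference in CPM, the increases were led by Gpnmb, a lysosomal glycoprotein of the scar-associated state, which rose from 4433 and 4535 to 8539.8 and 8154 CPM (1.88-fold, log2 0.91 (SE 0.0342)). The saposin precursor gene Psap rose from 10216 and 10884 to 13862 and 13726 CPM (1.32-fold). Galectin-3, encoded by Lgals3, which binds glycans exposed on ruptured lysosomes, rose from 3219 and 3332 to 5158 and 4971 CPM (1.56-fold). Mmp13 rose from 467 and 455 to 1612 and 1564 CPM, the autophagy receptor gene Sqstm1 rose from 1121 and 1078 to 2152 and 2174 CPM and the peroxiredoxin gene Prdx1 rose from 1438 and 1449.5 to 2416 and 2524 CPM. The ferritin light chain gene Ftl1 had a log2 fold change of 0.50 but shares exon bases on its strand with Gm22133, and its call was lost without either CC library (highest adjusted p 0.128). The 8 largest decreases in CPM were those of Ctss, Ctsc, Lgmn, Itm2b, mt-Co1 and the 3 chains of C1q. The cathepsin S gene Ctss fell from 7949 and 8181 to 5937 and 6317 CPM, cathepsin C (Ctsc) from 2979 and 3095 to 1129 and 1375 CPM and legumain (Lgmn) from 4215 and 4253 to 2508 and 2492 CPM.

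Of 23 genes of sterol synthesis described, 3 rose and 6 fell, with a median log2 fold change of -0.122. The raised share was close to the 12.8% of all genes described. Without Veh replicate 2 the count that fell was 2, and without CC replicate 2 it was 3. Dhcr7, the last reductase of the pathway, fell from 19.4 and 19.0 to 10.7 and 10.96 CPM (log2 -0.81 (SE 0.0783), adjusted p = 0.000268). Cyp51, the lanosterol demethylase gene, had a log2 fold change of -0.73, and Idi1, an isoprenoid isomerase gene, -0.65. Without Veh replicate 2, the adjusted p of Cyp51 and of Idi1 no longer passed, and the same held for Cyp51 without CC replicate 2 and for Idi1 without CC replicate 1 (highest 0.0614 and 0.0987). Srebf2, the gene for the SREBP2 factor itself, had a log2 fold change of -0.76 and lost its call without either Veh library or without CC replicate 2 (highest adjusted p 0.152). Acat2, a cytosolic acetoacetyl-CoA thiolase gene at the head of the pathway, moved the other way, from 3.29 and 3.22 to 5.86 and 6.76 CPM (log2 0.97 (SE 0.165)).

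LXR targets moved in both directions. Of the 18 listed, all were described, 9 rose and 5 fell (median 0.227). Abca1, which moves cholesterol to apolipoprotein A-I, rose from 574 and 557 to 1256 and 1234 CPM (2.23-fold, log2 1.16 (SE 0.057), adjusted p = 1.02e-05). Abcg1, which moves it to HDL, rose from 621 and 590.2 to 1089 and 1045 CPM. The stearoyl-CoA desaturase gene Scd1 rose from 23.3 and 23.2 to 101 and 99.0 CPM (4.34-fold). In each of these 3 genes the replicates lay close together and the groups apart. Its paralog Scd2 stood at 14.8 and 14.5 CPM with Veh and 66.8 and 70.1 CPM with CC, yet its call was lost when any of the 4 steatotic libraries was left out (highest adjusted p 0.128). Smpdl3a, a secreted phosphodiesterase gene, fell from 1012 and 997 to 534 and 531 CPM, and the phospholipid transfer protein gene Pltp fell from 1174 and 1229 to 632 and 697 CPM. Apoc1 had a log2 fold change of -1.02 and lost its call without either Veh library (highest adjusted p 0.171). Nr1h3, the gene for LXR alpha, fell from 221 and 219 to 167 and 173 CPM. Apoe varied more between replicates than between groups, at 4149 and 3241 CPM with Veh and 3996 and 2167 CPM with CC. The lysosomal cholesterol exporter gene Npc1 was at 341 and 352 CPM with Veh and 362 and 345 CPM with CC (adjusted p = 0.548), and its soluble partner Npc2 rose from 2115 and 2177 to 2537 and 2629.8 CPM.

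Among 29 genes of lipid droplets and fatty acid handling described, 12 rose and 9 fell (median 0.293). Hilpda, a droplet protein that inhibits the lipase ATGL, rose from 54.5 and 55.2 to 191 and 185 CPM (log2 1.79 (SE 0.0425), adjusted p = 6.67e-07), and the ATGL gene itself, Pnpla2, fell from 165 and 166 to 111 and 110.4 CPM. The fatty acid carrier gene Fabp4 rose from 13.7 and 14.8 to 27.5 and 27.9 CPM. Angptl4, a secreted inhibitor of lipoprotein lipase, fell from 31.0 and 33.2 to 9.30 and 10.5 CPM (log2 -1.68 (SE 0.111)), and the desaturase gene Fads1 fell from 52.9 and 55.6 to 25.3 and 26.5 CPM. The acyl-CoA synthetase gene Acsl3 rose from 7.17 and 7.22 to 15.4 and 16.7 CPM, and it shares exon bases with Utp14b, which rose by a log2 fold change of 1.45. Acsl1 read 92.8 and 173 CPM with Veh and 379.5 and 363 CPM with CC, and its call was lost in 9 of the other settings, leaving out either CC library among them (highest adjusted p 0.248).

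Of 20 lysosomal proton pump subunits, 13 rose and none fell. The summed level of the pump genes was 4290 and 4340 CPM with Veh and 5760 and 5550 CPM with CC, and their median log2 fold change was 0.351. Atp6v0d2, a pump subunit also needed for macrophage fusion, rose from 69.3 and 66.7 to 262 and 231 CPM (3.67-fold, log2 1.88 (SE 0.0646), adjusted p = 2.87e-06). Atp6v0c, the proteolipid of the membrane ring, rose from 110.0 and 119.9 to 266 and 282 CPM, Atp6v1h from 87.3 and 91.1 to 157 and 162 CPM and Atp6v1c1 from 129.9 and 125 to 226 and 217 CPM.

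Of 34 lysosomal hydrolase genes, 6 rose and 15 fell (median -0.0906). Cathepsin K (Ctsk), a collagenase of osteoclasts, rose from 21.3 and 19.6 to 56.2 and 53.1 CPM (log2 1.44 (SE 0.0825)), and cathepsin Z (Ctsz) rose from 1577 and 1576 to 2238 and 2197 CPM. Acid alpha-glucosidase (Gaa) had a log2 fold change of 0.34. Ctsc fell by 1.26 on the log2 scale, the aspartic protease gene Ctse from 35.2 and 38.6 to 17.4 and 15.3 CPM, Ctsf from 6.86 and 5.53 to 1.97 and 2.12 CPM and the lysosomal mannosidase gene Man2b1 from 696 and 742 to 321 and 349 CPM. The lysosomal acid lipase gene Lipa, whose product frees cholesterol from its esters, fell slightly, from 1121 and 1146 to 989 and 1002 CPM. Cathepsin B (Ctsb) had a log2 fold change of -0.11, lost when any of the 4 steatotic libraries was left out (highest adjusted p 0.126).

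Among 26 lysosomal membrane genes and targets of the MiT/TFE factors, 12 rose and 3 fell (median 0.164). For the transcripts of the factors themselves, Tfe3 was at 174 and 177 CPM with Veh and 180.3 and 178 CPM with CC (adjusted p = 0.458), Tfeb at 39.9 and 39.5 CPM with Veh and 41.0 and 40.7 CPM with CC (adjusted p = 0.614), and Mitf rose from 101 and 105 to 113 and 115 CPM. Rragd, the Rag GTPase that tethers mTORC1 to lysosomes, rose from 10.03 and 9.35 to 33.0 and 27.3 CPM (log2 1.65 (SE 0.128)). Sqstm1 rose 1.99-fold, and the calcium channel gene Mcoln1 rose from 67.2 and 64.7 to 90.2 and 81.8 CPM. The lysosomal membrane protein genes Lamp1 and Lamp2 differed: Lamp1 was at 1982 and 1954 CPM with Veh and 1953 and 1934 CPM with CC (adjusted p = 0.981) and Lamp2 fell from 967 and 975 to 852 and 849 CPM. Laptm5 fell from 1367 and 1295 to 866 and 832 CPM and Scarb2, which encodes a lysosomal membrane protein, fell from 357 and 373 to 254 and 282 CPM.

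Of 22 genes of scar-associated and lipid-associated macrophages, 16 rose and 4 fell (median 0.475). Some of these genes were named by the study on these libraries, so their direction is not independent evidence. Osteopontin (Spp1) rose from 57.7 and 50.9 to 339.7 and 316 CPM (6.11-fold, log2 2.61 (SE 0.128), adjusted p = 3.22e-05). The integrin gene Itgax, which encodes CD11c, rose from 42.2 and 33.4 to 165 and 145 CPM (4.16-fold), the tetraspanin gene Cd9 rose from 49.6 and 49.9 to 192 and 169 CPM and the angiogenic factor gene Vegfa rose from 11.7 and 10.8 to 35.0 and 39.4 CPM. Trem2, the lipid-sensing receptor whose name is often given to this state, went the other way, from 265 and 274 to 192 and 176 CPM (log2 -0.53 (SE 0.0554), adjusted p = 0.000383), as did Tgfbi, a matrix protein gene induced by TGF-beta, from 1324 and 1314 to 903 and 971 CPM. The potassium channel gene Kcnn4 was at 30.1 and 29.0 CPM with Veh and 32.4 and 28.9 CPM with CC, with overlapping groups (adjusted p = 0.77). Of 15 genes of osteoclasts and cell fusion described, 9 rose and 2 fell (median 0.22). Carbonic anhydrase 2 (Car2) rose from 24.4 and 25.3 to 157 and 173 CPM (log2 2.75 (SE 0.0615)), Mmp9 from 1.92 and 1.73 to 7.21 and 9.03 CPM and the chloride-proton exchanger gene Clcn7 from 207 and 196 to 361 and 341 CPM. RANK, the osteoclast differentiation receptor encoded by Tnfrsf11a, fell from 166 and 163 to 111 and 112 CPM.

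Kupffer cell identity genes fell: of 23 described, 15 fell and 3 rose (median -0.446), and 1 rose without either Veh library. Beside Vsig4, the mannose receptor gene Mrc1 fell from 423 and 449 to 135 and 143 CPM (log2 -1.64 (SE 0.046)) and the haemoglobin scavenger receptor gene Cd163 fell from 2.77 and 3.40 to 0.686 and 0.550 CPM, a low level. Clec4f, a lectin gene used as a mouse Kupffer cell marker, fell from 88.2 and 96.2 to 42.6 and 49.9 CPM, and the iron exporter gene Slc40a1 fell from 552 and 543 to 346 and 391.8 CPM. Timd4, a phosphatidylserine receptor of embryo-derived Kupffer cells, was at 18.3 and 17.2 CPM with Veh and 10.9 and 12.1 CPM with CC, and its call was lost when any of the 4 steatotic libraries was left out (highest adjusted p 0.112). The haem oxygenase gene Hmox1 rose from 2270.1 and 2381 to 2884 and 3050.4 CPM. Marco, a scavenger receptor gene, read 95.2 and 90.5 CPM with Veh and 127 and 173 CPM with CC and lost its call without either Veh library (highest adjusted p 0.145). In bulk samples, fewer cells of a type and less RNA per cell cannot be told apart. General macrophage genes also fell, 7 of 12 with 2 raised, or 1 to 2 with 1 library left out (median -0.367): Adgre1 had a log2 fold change of -0.66, the growth factor receptor gene Csf1r -0.50, and the lipopolysaccharide co-receptor gene Cd14 rose from 221 and 233 to 447 and 505 CPM. Of 10 monocyte genes, 1 rose and 2 fell, and none fell without Veh replicate 2 or CC replicate 1. The riser was Vcan (from 15.5 and 15.2 to 33.4 and 37.6 CPM), and Ly6c2 was at 35.0 and 28.5 CPM with Veh and 24.3 and 25.9 CPM with CC (adjusted p = 0.253).

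**Figure D3:**
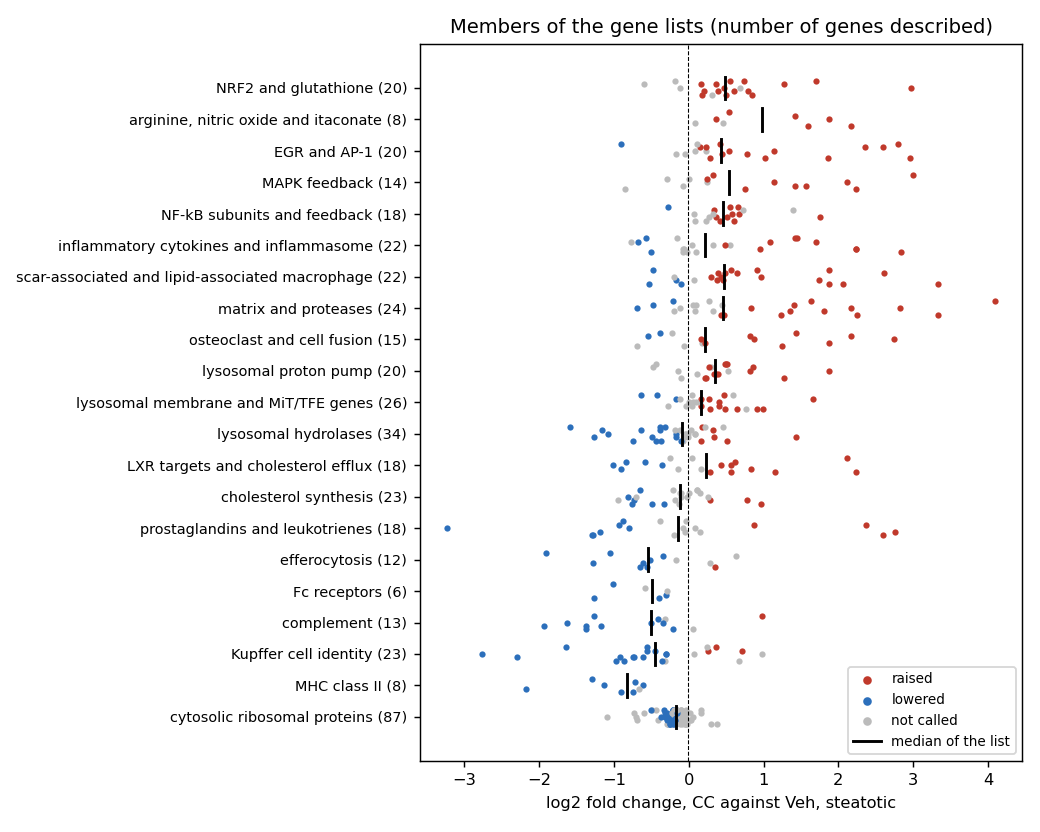
Log2 fold change with CC of the described members of a selection of the gene lists (one point per gene, median as a bar), with raised and lowered genes coloured. Among the lists drawn, the medians run from -0.824 for MHC class II to 0.98 for arginine, nitric oxide and itaconate genes.

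Genes for complement, removal of dead cells, antibody uptake and antigen presentation fell in the same libraries. Of 13 complement genes, 10 fell and 1 rose (median -0.51). The 3 chains of C1q, which tags dying cells, fell together, C1qa from 2148 and 2248 to 799.7 and 882 CPM, C1qb from 2231 and 2389 to 836 and 935 CPM and C1qc from 1851 and 1953 to 565 and 651 CPM (log2 -1.37, -1.37 and -1.63). C3 was the member that rose, from 328 and 328 to 618 and 661 CPM. Of 12 efferocytosis genes, 8 fell and 1 rose (median -0.538). The riser was Stab2, and from 0 to 3 rose with 1 library left out. Gas6, the ligand that bridges dying cells to the receptors Mertk and Axl, fell from 84.5 and 92.4 to 22.2 and 24.4 CPM (log2 -1.91 (SE 0.0714), adjusted p = 3.16e-06), the second bridging ligand gene Pros1 fell from 38.4 and 42.0 to 19.2 and 19.3 CPM, and the receptors fell too, Mertk from 313 and 313 to 207 and 226 CPM and Axl from 819.7 and 860.3 to 552 and 573 CPM. The integrin gene Itgb5 fell from 237 and 246 to 96.8 and 101 CPM. Of 6 Fc receptor genes, 4 fell and none rose (median -0.491), led by the neonatal receptor gene Fcgrt (-1.26) and Fcgr4 (-1.01). Fcgrt lost its call in the fit of the 4 steatotic libraries with a replicate block (adjusted p 0.0532).

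Of 8 MHC class II genes, 7 fell and none rose (median -0.824), and 4 fell without CC replicate 1. The class II transactivator gene Ciita fell from 6.45 and 8.33 to 1.19 and 2.04 CPM (log2 -2.17 (SE 0.277)), and H2-DMa, which helps load peptides, fell from 51.4 and 55.3 to 22.4 and 20.6 CPM. H2-Eb1 was at 50.6 and 37.3 CPM with Veh and 22.02 and 17.6 CPM with CC and lost its call when any of the 4 steatotic libraries was left out (highest adjusted p 0.163). Of 11 Toll-like receptor genes, 5 fell and 1 rose. The endosomal receptor genes Tlr8 and Tlr9 fell, Tlr8 from 297 and 289 to 132 and 136 CPM and Tlr9 from 159.6 and 152 to 79.9 and 71.9 CPM, and the surface receptor gene Tlr2 rose from 104 and 109.5 to 139 and 151 CPM. Tlr4 and Tlr7 could not be read: the CC replicates stood at 202 and 26.4 CPM for Tlr4 and 147 and 339 for Tlr7, against 259 and 293 and 439 and 446 with Veh. Of 20 C-type lectin genes, 6 rose and 7 fell. The risers were the activating receptors Clec4e, Clec4d (0.77), Clec4n (0.77), Clec5a (0.78) and Clec7a (0.39), with Clec2d (0.25), and the largest decreases were those of Clec4b1 (from 6.48 and 6.71 to 0.808 and 0.805 CPM) and Clec10a (-1.21). The call for Clec10a was lost without Veh replicate 1 or CC replicate 2 (highest adjusted p 0.0669).

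Cytokine genes moved unevenly. Of 22 cytokine and inflammasome genes described, 9 rose and 3 fell (median 0.215). Interleukin 1 alpha (Il1a) rose from 39.5 and 36.6 to 186 and 168 CPM (4.71-fold, log2 2.23 (SE 0.0676), adjusted p = 2.03e-06), and the antagonist of the same receptor, Il1rn, rose from 308 and 285 to 989.5 and 915.3 CPM. Il1b, whose product is cut by the inflammasome, rose from 85.0 and 79.3 to 114 and 114 CPM (1.40-fold). The inflammasome sensor gene Nlrp3 rose from 31.3 and 28.0 to 68.7 and 55.2 CPM, Casp1 was at 168 and 162 CPM with Veh and 156 and 153 CPM with CC (adjusted p = 0.409), and the adaptor gene Pycard fell from 44.9 and 49.0 to 30.7 and 34.4 CPM. Tumour necrosis factor (Tnf) rose from 52.2 and 50.6 to 106 and 91.0 CPM and Il6 rose from a low level, from 1.41 and 0.938 to 5.93 and 4.98 CPM. The anti-inflammatory cytokine gene Il10 fell from 19.8 and 19.99 to 12.5 and 12.02 CPM (adjusted p 0.0505 without CC replicate 2), and Il18 fell from 37.3 and 37.3 to 23.9 and 25.8 CPM. Il33 was at 0.805 and 0.557 CPM with Veh and 6.42 and 3.25 CPM with CC, with a call lost without Veh replicate 2 or CC replicate 1 (highest adjusted p 0.0686).

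Of 25 chemokine ligand genes described, 10 rose and 3 fell (median 0.269). Of the ligands of the receptor CXCR2, Cxcl3 rose by 8.01-fold, Cxcl2 by 7.25-fold and Cxcl1 from 12.4 and 12.1 to 25.7 and 23.2 CPM, while Cxcl5 had a log2 fold change of -0.21 (adjusted p = 0.672). The monocyte attractant gene Ccl2 rose from 222 and 222 to 472 and 437 CPM, Ccl3 rose from 106 and 102 to 257 and 206 CPM and Ccl7 rose from 143 and 126 to 282 and 252 CPM. Ccl6 fell from 515 and 506 to 403 and 369.5 CPM and Cxcl16, a membrane-bound chemokine that also binds oxidized lipoprotein, fell from 576 and 551 to 411 and 399.8 CPM. Among 13 receptor genes, 3 rose (2 to 4 with 1 library left out) and 4 fell (1 without Veh replicate 2 or CC replicate 1). Ccr1 rose from 87.4 and 86.6 to 287 and 257 CPM (log2 1.66 (SE 0.0678)) and Ccr3 fell from 49.2 and 50.9 to 13.9 and 16.2 CPM. Ccr2, the receptor for Ccl2, was at 8.78 and 8.67 CPM with Veh and 4.79 and 5.43 CPM with CC and lost its call when any of the 4 steatotic libraries was left out (highest adjusted p 0.106).

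NF-kB switches on many inflammatory genes. Of 18 genes for its subunits, its inhibitors and its signalling and feedback proteins, 10 rose and 1 fell (median 0.464), and none fell without Veh replicate 1 or CC replicate 2. The subunit gene Rela had a log2 fold change of 0.27 (adjusted p = 0.184). Increases were modest apart from the adaptor gene Traf1 (from 18.2 and 26.2 to 67.1 and 80.7 CPM). The inhibitor gene Nfkbia, itself an NF-kB target, rose from 228 and 214 to 329.5 and 334 CPM, the kinase gene Ikbke from 139 and 136 to 213 and 219 CPM and the subunit gene Nfkb2 from 96.7 and 92.5 to 148 and 147 CPM. Of 20 EGR and AP-1 genes described, 14 rose and 1 fell (median 0.43), and 9 rose without either Veh library. Egr1, the zinc finger factor the study follows, rose from 11.97 and 11.1 to 57.9 and 58.9 CPM (5.12-fold, log2 2.36 (SE 0.0698), adjusted p = 2.00e-06). Egr3 rose from 0.249 and 0.448 to 3.10 and 2.32 CPM, passing the filter through the CC libraries alone, and Egr2 was at 8.45 and 8.06 CPM with Veh and 57.7 and 56.0 CPM with CC, with a call lost when any of the 4 steatotic libraries was left out (highest adjusted p 0.12). The EGR corepressor gene Nab2 fell from 18.1 and 20.7 to 10.5 and 10.01 CPM. Fosl1, an AP-1 subunit, rose from 1.39 and 1.36 to 8.52 and 7.97 CPM, Atf3 rose from 122 and 119.99 to 248 and 237 CPM and Maff rose from 3.16 and 3.62 to 11.7 and 12.7 CPM, while Fos was at 103 and 108 CPM with Veh and 91.1 and 111 CPM with CC (adjusted p = 0.751). Of 14 feedback inhibitors of MAP kinase signalling described, 9 rose and none fell (median 0.535). The phosphatase gene Dusp5 rose from 16.5 and 14.4 to 77.8 and 66.0 CPM, Dusp10 from 7.32 and 7.69 to 21.96 and 21.99 CPM and the Sprouty gene Spry2 from 1.76 and 1.47 to 6.88 and 6.90 CPM. Among 22 macrophage transcription factor genes, 8 rose and 4 fell. Bhlhe40 rose from 42.7 and 40.1 to 212 and 184 CPM and Klf4 from 15.0 and 17.6 to 38.9 and 34.7 CPM, and the identity factors Maf (-0.74) and Spi1 (-0.20), which encodes PU.1, fell.

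Promoters of 6 genes with an AP-1 match and 3 with an NF-kB match are shown because members of both families were among the genes that rose. Capitals mark the matched letters. Each line gives the 120 bases before the RefSeq start (GRCm38.p6), 5′ to 3′ on the gene's strand.
Mmp10 (chr9:7502222-7502341, plus strand): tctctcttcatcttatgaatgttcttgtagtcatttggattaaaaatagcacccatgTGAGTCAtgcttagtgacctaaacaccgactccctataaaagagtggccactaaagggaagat
Mmp13 (chr9:7272394-7272513, plus strand): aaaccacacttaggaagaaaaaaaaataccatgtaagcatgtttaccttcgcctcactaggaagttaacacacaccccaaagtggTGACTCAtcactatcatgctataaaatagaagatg
Il1a (chr2:129309973-129310092, minus strand): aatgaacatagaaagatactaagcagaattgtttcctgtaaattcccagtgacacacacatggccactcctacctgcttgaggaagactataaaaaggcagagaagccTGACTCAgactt
Itgax (chr7:128129430-128129549, plus strand): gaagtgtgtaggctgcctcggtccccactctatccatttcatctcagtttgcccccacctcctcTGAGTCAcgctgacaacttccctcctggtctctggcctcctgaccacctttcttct
Srxn1 (chr2:152105404-152105523, plus strand): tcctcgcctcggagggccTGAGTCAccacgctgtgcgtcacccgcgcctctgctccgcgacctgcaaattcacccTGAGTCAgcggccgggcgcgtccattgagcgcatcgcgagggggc
Cd207, a gene that fell (chr6:83677858-83677977, minus strand): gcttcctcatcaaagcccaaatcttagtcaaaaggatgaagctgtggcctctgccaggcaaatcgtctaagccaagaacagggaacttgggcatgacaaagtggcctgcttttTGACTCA
Cxcl2 (chr5:90903779-90903898, plus strand): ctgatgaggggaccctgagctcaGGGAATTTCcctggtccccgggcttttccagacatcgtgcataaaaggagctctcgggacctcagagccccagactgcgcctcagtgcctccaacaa
Cxcl3 (chr5:90785981-90786100, plus strand): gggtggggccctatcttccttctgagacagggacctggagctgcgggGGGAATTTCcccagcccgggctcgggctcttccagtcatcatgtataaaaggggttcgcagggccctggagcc
Nfkbia (chr12:55492648-55492767, minus strand): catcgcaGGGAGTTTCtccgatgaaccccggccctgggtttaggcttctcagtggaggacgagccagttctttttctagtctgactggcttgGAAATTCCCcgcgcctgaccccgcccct
The first letter of the AP-1 match lay 63 bases before the start in Mmp10, 35 in Mmp13, 12 in Il1a, 56 in Itgax and 7 in Cd207, and Srxn1 held matches at 102 and 45 bases. The NF-kB match lay 97 bases before the start in Cxcl2, 73 in Cxcl3, and 113 and 28 in Nfkbia, the second on the opposite strand.

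A match is a description of letters and not a binding site. Both strands were searched from 250 bases before to 50 after the first listed start of the 9900 genes described that had a promoter in the RefSeq table, 355 of them raised and 158 lowered more than 2-fold. The AP-1 letters TGANTCA stood in 53 of 355 promoters of genes raised more than 2-fold (14.9%), in 5.26% of all promoters and in 12 of 158 of genes lowered more than 2-fold (7.59%). Over the 150 bases up to the start, the shares were 9.3%, 2.77% and 5.06%. The NF-kB letters GGGANTTTC stood in 9 of 355 (2.54%), in 1.07% of all and in 2 of 158 (1.27%), with 1.2% among all raised genes. With any listed start, an alternative chosen after the data were seen, the NF-kB shares were 3.1%, 1.25% and 2.53%, so raised and lowered genes differed little. The CLEAR letters TCACGTGA, which MiT/TFE factors bind, stood in 1 of 355 promoters of genes raised more than 2-fold (0.282%) and in 1.98% of all, though among all 1336 raised genes with a promoter the share was 2.69%. The EGR letters GCGTGGGCG stood in 1.69% of promoters raised more than 2-fold, 1.12% of all raised and 1.28% of all, the sterol letters TCACCCCAC in 0.845% and 0.495%, and the interferon letters GAAANNGAA in 9.58% and 7.75%. The antioxidant letters TGACNNNGC, which can overlap an AP-1 match, stood in 15.5% and 15.1% (18.4% of all raised and 19% of genes lowered more than 2-fold), the hypoxia letters ACGTGC in 8.17% and 8.25%, and the CRE letters TGACGTCA in 2.54% and 3.26%.

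**Figure D4:**
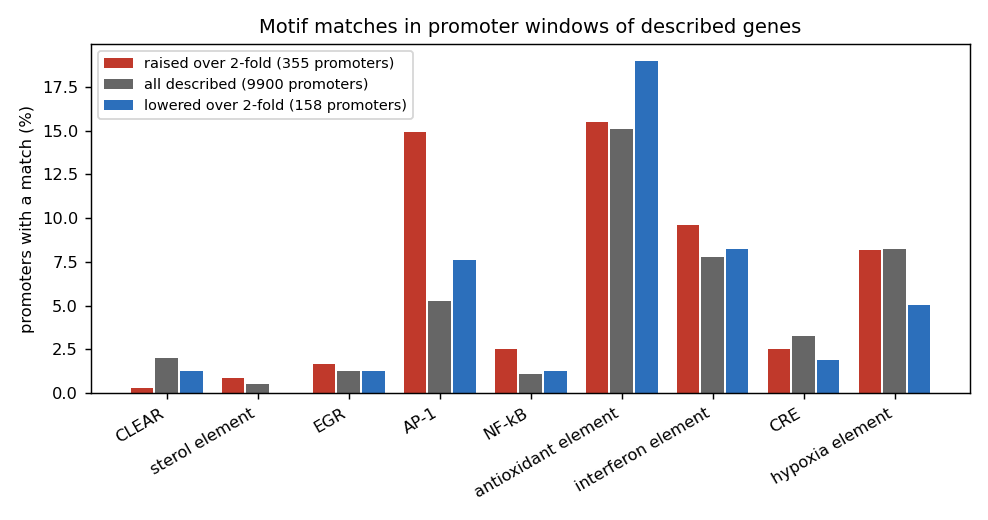
Share of promoters holding each of the 9 motifs (percent) among genes raised more than 2-fold, genes lowered more than 2-fold and all genes described with a promoter. The AP-1 bar is 14.9% for the raised genes against 5.26% for all, and the antioxidant bars are 15.5% and 15.1%.

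Of 24 matrix and protease genes described, 13 rose and 3 fell (median 0.461), with 10 past 2-fold up. Beside Mmp12, the collagenase gene Mmp13 rose 3.49-fold, stromelysin 2 (Mmp10) rose from 0.234 and 0.272 to 4.24 and 4.37 CPM, passing the filter through the CC libraries alone, and the neutrophil collagenase gene Mmp8 rose from 94.1 and 98.0 to 241 and 243 CPM. Lox, the enzyme that crosslinks collagen, rose from 5.27 and 4.16 to 35.1 and 30.7 CPM (log2 2.82 (SE 0.165), adjusted p = 2.27e-05). Urokinase (Plau) rose from 207 and 194 to 550.3 and 505 CPM, its receptor (Plaur) from 61.6 and 57.5 to 192 and 175 CPM and Serpinb2, an inhibitor of urokinase, from 35.8 and 36.5 to 161 and 177 CPM. Thrombospondin 1 (Thbs1), an activator of latent TGF-beta, rose from 215 and 202 to 498 and 470.1 CPM. The metalloprotease inhibitor gene Timp2 fell from 77.4 and 76.8 to 46.1 and 48.4 CPM and the transglutaminase gene Tgm2 fell from 756 and 768 to 647 and 652 CPM. The basement membrane collagen gene Col4a1 was at 99.0 and 96.3 CPM with Veh and 93.5 and 88.9 CPM with CC (adjusted p = 0.362).

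Growth factor genes whose products act on stromal cells also split. Of 19 described, 9 rose and 3 fell (median 0.46). Hbegf, a ligand of the EGF receptor, rose from 2.96 and 2.51 to 16.8 and 16.9 CPM (log2 2.64 (SE 0.141)), and the stress-induced ligand gene Gdf15 rose from 8.59 and 6.65 to 30.9 and 24.5 CPM. Of the platelet-derived growth factors, which stimulate stellate cells, Pdgfa rose from 17.9 and 16.4 to 28.2 and 28.9 CPM and Pdgfb rose from 54.9 and 51.7 to 76.2 and 68.7 CPM, while Pdgfc fell from 119.8 and 124 to 49.8 and 55.1 CPM (log2 -1.202 (SE 0.062)). The hepatocyte growth factor gene Hgf fell from 26.9 and 28.6 to 12.1 and 13.6 CPM, and Tgfb3 read 3.38 and 3.51 CPM with Veh and 1.33 and 1.58 CPM with CC, with a call lost without either Veh library or without CC replicate 1 (highest adjusted p 0.0931). Tgfb1 was at 296 and 312 CPM with Veh and 286 and 267 CPM with CC (adjusted p = 0.119).

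Of 18 prostaglandin and leukotriene genes described, 4 rose and 7 fell (median -0.142). Cyclooxygenase 2 (Ptgs2) rose from 15.8 and 13.9 to 104 and 94.4 CPM (6.77-fold, log2 2.76 (SE 0.104)), and prostaglandin E synthase (Ptges) rose from 5.69 and 5.93 to 34.7 and 34.5 CPM (6.02-fold). The constitutive cyclooxygenase gene Ptgs1 fell from 68.8 and 78.9 to 27.3 and 32.1 CPM, the prostaglandin D synthase gene Hpgds from 132 and 135 to 69.4 and 68.3 CPM and the thromboxane synthase gene Tbxas1 from 88.8 and 83.1 to 48.2 and 49.6 CPM, and Hpgd, which breaks prostaglandins down, fell 9.37-fold. Of the receptors for prostaglandin E2, Ptger2 rose from 19.8 and 16.1 to 30.02 and 35.2 CPM and Ptger4 fell from 49.6 and 45.3 to 26.2 and 24.8 CPM, and the prostacyclin receptor gene Ptgir rose from 0.732 and 0.448 to 3.55 and 2.46 CPM. On the leukotriene side, Alox5ap, the helper of 5-lipoxygenase, fell from 142 and 141 to 58.4 and 57.1 CPM and the receptor gene Cysltr1 fell from 76.1 and 72.0 to 28.5 and 35.5 CPM.

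Of 8 genes of arginine, nitric oxide and itaconate metabolism, 6 rose and none fell (median 0.98). Inducible nitric oxide synthase (Nos2) rose from 9.51 and 8.85 to 41.5 and 40.4 CPM (log2 2.17 (SE 0.0778), adjusted p = 2.94e-06), the arginine carrier gene Slc7a2 from 22.4 and 26.1 to 92.6 and 82.9 CPM and Ass1, which recycles citrulline to arginine, from 37.9 and 31.7 to 98.2 and 85.7 CPM. Acod1, which makes itaconate, rose from 238 and 212 to 689.9 and 648 CPM.

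Of 20 NRF2 and glutathione genes described, 15 rose and none fell (median 0.485). With 1 library left out, 11 to 16 rose and up to 1 fell. Slc7a11 rose 7.81-fold, Srxn1, which repairs oxidized peroxiredoxin, rose from 94.8 and 114 to 259 and 237 CPM, and Nqo1 rose from a low level, from 0.878 and 1.28 to 3.63 and 3.29 CPM. Txnrd1, the thioredoxin reductase gene, had a log2 fold change of 0.73 and the glutathione reductase gene Gsr 0.61. Of 15 iron genes, 6 rose (3 without CC replicate 1) and 3 fell. The haem transporter gene Slc48a1 had a log2 fold change of 0.39, and Hfe, a regulator of iron uptake, fell from 47.1 and 54.6 to 13.6 and 17.2 CPM. The transferrin receptor gene Tfrc fell from 67.7 and 67.6 to 49.6 and 48.7 CPM, and ferroportin (Slc40a1) had a log2 fold change of -0.55. Of 24 genes of the stress response of the endoplasmic reticulum, 9 rose and 3 fell (median 0.156), and 1 fell when any of the 4 steatotic libraries was left out. Ddit3, which encodes CHOP, rose from 89.1 and 86.5 to 176 and 179 CPM, the pseudokinase gene Trib3 from 46.3 and 42.6 to 75.6 and 74.7 CPM, the asparagine synthetase gene Asns from 23.5 and 24.2 to 41.4 and 40.3 CPM and Psat1, of serine synthesis, from 5.12 and 6.67 to 18.5 and 13.9 CPM. The chaperone genes Hspa5 (0.13) and Hsp90b1 (-0.08) had no call, and the genes called lower were Pdia4 (-0.34), Herpud1 (-0.32) and Sesn2 (-0.27). The call for Herpud1 was lost in the fit of the 4 steatotic libraries alone, and that for Sesn2 with a replicate block.

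Over all genes described, 12.8% rose and 11.7% fell, and the respiratory chain and cell cycle lists below had smaller shares in both directions. Of 21 glycolysis and hypoxia genes described, 8 rose and 3 fell (median 0.111), led by the glucose carrier gene Slc2a1 (from 55.4 and 52.1 to 137 and 123 CPM). Of 78 respiratory chain subunit genes, 3 rose and 7 fell (median -0.0485). From 0 to 2 rose with any 1 of the 8 libraries left out, and from 2 to 4 fell when either Veh library, CC replicate 1 or either normal CC library was left out. Of 87 cytosolic ribosomal protein genes, none rose and 29 fell (median -0.166), and the count that fell was 18 without Veh replicate 1, 8 without Veh replicate 2 and 12 without CC replicate 1. Of 38 cell cycle genes, 2 rose and 3 fell (1 without either CC library), and of 29 interferon-stimulated genes, 9 rose (5 without Veh replicate 2) and 3 fell (median 0.0432), led by Cxcl10 (0.75) and Rsad2 (0.65). Of 15 STAT and SOCS genes, 2 rose (1 to 3 with 1 library left out) and 3 fell. Of 32 genes of the TNF superfamily described, 9 rose and 3 fell, with the death receptor gene Fas rising from 7.16 and 5.74 to 14.5 and 13.9 CPM and the TNF receptor gene Tnfrsf1b from 792 and 779 to 1289.5 and 1201 CPM. Of 21 integrin genes, 5 rose and 7 fell, among them Itga5, the fibronectin receptor chain (0.53), and Itga4 (-0.71).

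Markers of other liver cells differed in how many passed the filter. Of 16 hepatocyte markers, 3 were described: Alb (adjusted p = 0.226), the transferrin gene Trf, which fell from 103 and 118 to 45.9 and 52.7 CPM, and the haptoglobin gene Hp, which rose from 2.01 and 1.81 to 8.58 and 9.33 CPM. The other 13, Apoa1, Ttr and Fga among them, were under the filter or at 0. Of 10 stellate cell and fibroblast markers, Dcn rose from 20.8 and 17.4 to 135 and 108 CPM and Acta2 was described without a call, while Col1a1, Col1a2, Col3a1 and Lum were under the filter and Des and Lrat had 0 counts. Of 10 neutrophil markers, S100a8 rose from 5.44 and 4.29 to 18.4 and 19.2 CPM and Csf3r fell from 149 and 156 to 125 and 127 CPM, while S100a9 was under the filter and Ly6g had 0 counts. The 11 T and NK cell markers were all described with none called, and their sum ran from 21.2 to 24.6 CPM with Veh and from 19.1 to 19.6 with CC. Of 11 sinusoidal endothelial markers described, 3 rose and 1 fell, and their sum ran from 251 to 261 CPM with Veh and from 210 to 215 with CC. The markers that rose were Oit3 (log2 0.76), Kdr (0.57, lost without CC replicate 1) and Stab2 (0.35, lost without Veh replicate 1 or CC replicate 2). The marker that fell was Pecam1 (from 96.1 and 94.3 to 35.5 and 40.7 CPM), and Clec4g was under the filter. Pecam1 is part of that sum and lost more CPM than the whole sum did, so the other markers together did not fall. Of 3 B cell markers described, Ms4a1 was called lower and lost its call when any of the 4 steatotic libraries was left out (highest adjusted p 0.191). All 6 cholangiocyte markers were described, and Spp1, also on the scar-associated list, was the one called. Krt19 was at 4.33 and 2.87 CPM with Veh and 4.59 and 4.08 CPM with CC, and Epcam at 1.71 and 1.21 CPM with Veh and 2.01 and 1.58 CPM with CC. Of 5 dendritic cell markers described, none was called, though 2 rose without Veh replicate 1. The part of other cells in the results above was not tested beyond these values.

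The response in steatotic liver macrophages was also set against the response in normal liver macrophages by a test of the difference between both log2 fold changes. Of the genes described, 293 (2.09%) had a difference above 0 and 193 (1.37%) below 0. Both counts were lower with any library left out, from 184 (without normal Veh replicate 2) to 245 above 0 and from 100 (without steatotic Veh replicate 2) to 172 below 0. Among the 1791 raised genes, 275 had a difference above 0, and 1646 (91.9%) also had a log2 fold change above 0 in normal liver macrophages. Among the 1643 lowered genes, 173 had a difference below 0, and 1512 (92%) had a log2 fold change below 0 in normal liver macrophages. Of the genes changed more than 2-fold, 155 of 502 raised and 58 of 225 lowered passed the test of the difference. Raised and lowered genes were chosen by the steatotic response, which is part of that difference, so shares above those of all genes are built in. Mmp12 had a log2 fold change of 3.33 in steatotic and 1.63 in normal liver macrophages (difference 1.701, adjusted p = 0.0024). Its levels were higher in the normal libraries, at 1267 and 1289 CPM with Veh and 3957 and 3750 CPM with CC. Spp1 had 2.61 and 0.84 (adjusted p = 0.00573), and Itgax 2.06 and 0.46 (adjusted p = 0.00497). Egr1 rose in both livers, by 2.36 and 1.59 (difference 0.76, adjusted p = 0.00659). Its normal levels were 21.9 and 20.4 CPM with Veh and 62.5 and 62.0 CPM with CC, both above the steatotic levels. Abca1 (1.16 and 1.22, adjusted p = 0.787) and Hpgd (-3.23 and -1.95, adjusted p = 0.271) had no called difference. Of 22 scar-associated genes, some of which the study chose on these libraries so that their count is not independent, 10 had a difference above 0 and 1 below 0, of 24 matrix genes 9 and 3, and of 26 lysosomal membrane and MiT/TFE genes 7 and 1. These lists share members, Mmp12, Gpnmb and Lgals3 among them, so the counts are not separate results. The counts were 2 above 0 and 4 below 0 for the 34 hydrolase genes and for the 18 prostaglandin and leukotriene genes, and 0 above and 4 below for the 23 Kupffer cell genes and for the 12 efferocytosis genes.

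**Figure D5:**
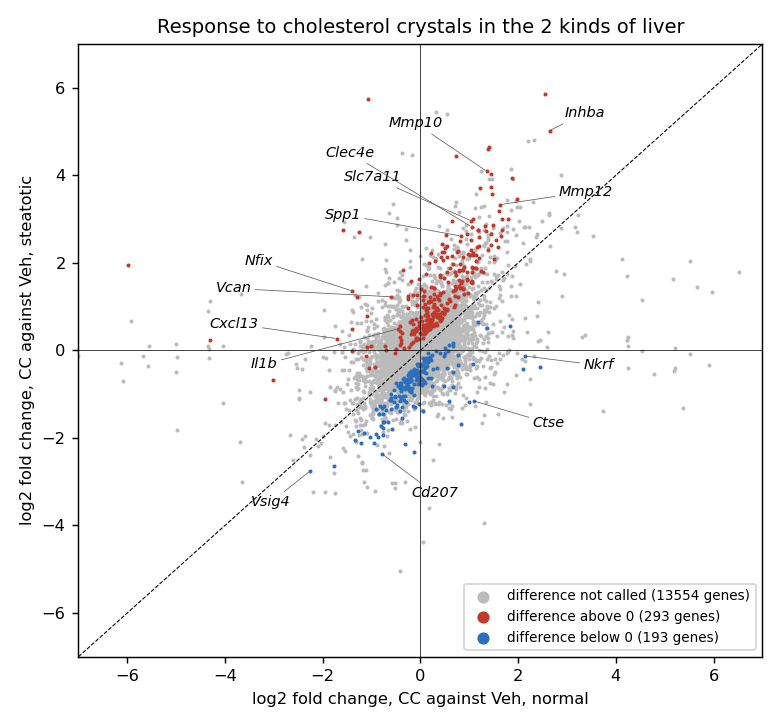
Log2 fold change with CC in normal (horizontal axis) against steatotic (vertical axis) liver macrophages, one point per gene described, with genes of a called difference coloured; 23 of 14040 genes lie outside the axes. Inhba lies at 2.64 and 5.02, Vsig4 at -2.26 and -2.76, and Nkrf at 2.13 and -0.13.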

How the data were processed

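Poly(A) RNA of hepatic macrophages was sequenced by the authors as 8 directional paired-end libraries, trimmed with fastp, aligned with HISAT2 to mm10 and quantified with StringTie (versions not given in the sources used here). The authors deposited 1 table of estimated counts per gene, which holds whole numbers. They were used as deposited, and multiples of 4 were over-represented among low counts, from which about 4 counts per fragment were inferred, so the floor of 3 fragments is 12 counts. Whether counting used strand is not given in the sources used here, so overlapping and antisense genes are uncertain. Libraries held 58668655 to 74529462 counts, so that 0.5 CPM stood for 29.3 to 37.3 counts. The common biological coefficient of variation was 0.171. For well expressed genes the number of libraries (2 per group) limits the precision, and for genes near the filter counting error does too.

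Groups followed the sample titles. In R 4.3.3, edgeR 4.0.16 (TMM, glmQLFit with robust = TRUE, glmQLFTest) fitted 4 group means to the 15202 genes that reached 0.5 CPM in any of the 8 libraries, and Benjamini-Hochberg adjustment covered all of them. The contrast was steatotic CC minus steatotic Veh, and a second contrast gave the difference from the same response in normal liver macrophages. TMM factors ran from 0.981 to 1.03. The fit was also run on simulated data, whose outcome is not given here and is not used as support. The members and gene lists were chosen with earlier results of these data known, so lists are described by counts and medians without a set test.

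Named genes were the 12 highest and 12 lowest log2 fold changes among called genes with mean log2 CPM above 3 and 1 direction in both numbered pairs, the 8 largest differences of mean CPM in each direction, the 8 largest differences between responses in each direction, up to 4 called members of each list in each direction with the largest change, genes the study names, and Mc4r. Predicted genes (symbols that start with Gm and a number or end in Rik) were left out of the 12 highest and 12 lowest. Other list members were named after their values were seen. Some genes that this rule gives are not reported here. Coordinates are from GENCODE M21 (GRCm38), and promoters from RefSeq (GRCm38.p6), where 9900 of 14032 described symbols matched. Alternatives tried were DESeq2 1.42.0, other scalings and filters, counts divided by 4, a fit with robust = FALSE, the replicate block, fits of the 4 steatotic libraries alone, each library left out, an adjusted p under 0.1, a test against 2-fold and other promoter windows. All libraries and columns of the table were used. Python 3.11.15 and matplotlib 3.10.9 drew the figures.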

Additional observations from a re-analysis of the deposited data

Results flagged for a closer look

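The log2 fold change with CC differed between steatotic and normal liver macrophages by edgeR's test of the difference in 293 genes above 0 and 193 below 0 (Benjamini-Hochberg adjusted p under 0.05), and the values of named genes follow as steatotic minus normal.

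Among raised genes, Inhba differed by 2.38, Dcbld2 by 2.07, the noncoding U90926 by 2.01 and Slc7a11 by 1.93. Clec4e differed by 1.78, Spp1 by 1.78, Mmp12 by 1.701, Itgax by 1.59, Ptgs2 by 1.58, Bhlhe40 by 1.503 and Cxcl2 by 1.37. Smaller differences were those of Ass1 (1.15), Egr1 (0.76), Atp6v0d2 (0.76) and Gpnmb (0.59). Mmp10 differed by 2.74, but its steatotic Veh libraries read 0.234 and 0.272 CPM, near the floor of 3 fragments (0.176 and 0.163 CPM), so that value has no firm size. For these 16 genes the log2 fold change was above 0 in both livers. Of them, Mmp12, Bhlhe40, Cxcl2, Egr1 and Gpnmb stood higher in the normal libraries both with Veh and with CC.

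Several genes had point estimates of opposite sign in the 2 kinds of liver. Il1b had a log2 fold change of 0.49 in steatotic and -0.47 in normal liver macrophages (difference 0.95), with a normal level of 99.9 and 99.5 CPM with Veh and 74.4 and 66.4 CPM with CC. Vcan had 1.22 and -0.59 (difference 1.82), Acat2 0.97 and -0.26 (difference 1.23), Tlr2 0.46 and -0.15 (difference 0.61) and Lgals3 0.65 and -0.02 (difference 0.67). Lgals3 hardly moved in the normal libraries, at 7070 and 6676 CPM with Veh and 6497 and 6701 CPM with CC. Those levels lay above its steatotic levels. Nfix, a transcription factor gene, had 1.36 and -1.40 (difference 2.76), and its call with CC in steatotic liver macrophages was lost without Veh replicate 1 (adjusted p 0.0524). The chemokine gene Cxcl13 had 0.27 (adjusted p = 0.344) and -1.71 (difference 1.98). Ccl6 fell in both, with -0.38 in steatotic (adjusted p = 0.00131) and -0.93 in normal liver macrophages (adjusted p = 6.54e-05, difference 0.55).

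Differences below 0 were led by Nkrf, an NF-kB repressing factor gene, which had -0.13 in steatotic and 2.13 in normal liver macrophages (difference -2.26). Ctse differed by -2.25, but its normal libraries read 0.142 and 0.0604 CPM with Veh and 0.224 and 0.205 CPM with CC. The Veh values lay below the floor of 3 fragments (0.17 and 0.181 CPM), and the CC values lay at or just above it (0.192 and 0.205 CPM). The normal fold of Ctse and its difference therefore have no firm size. Cd207 differed by -1.56, AI413582 by -1.500, Zdhhc24 by -1.44, Commd10 by -1.37, the placental growth factor gene Pgf by -1.28 and Cela1 by -1.22. The call for Commd10 with CC was lost without either Veh library or without CC replicate 2 (highest adjusted p 0.0851), and that for Pgf without Veh replicate 2 (adjusted p 0.0522). Pecam1 differed by -1.195, Cd72 by -1.11, Ptgs1 by -0.92 and Tlr9 by -0.89. The call of the difference itself was lost with at least 1 library left out for Inhba, Dcbld2, U90926, Cxcl13, Ctse, AI413582 and Cela1, and was kept with every library left out for Slc7a11, Nfix, Vcan, Nkrf, Cd207, Zdhhc24, Commd10 and Pgf. For the other genes it was not recomputed. Genotype, diet and the level with Veh all differ between the livers and cannot be told apart.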

How the results depend on the processing

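The counts of genes raised (1791) and lowered (1643) stayed within 1.5 times under DESeq2, other scalings and filters, counts divided by 4 and fits of the 4 steatotic libraries alone (1712 and 1493). With each library left out in turn, 1263 to 1742 genes rose and 1059 to 1613 fell, fewest without steatotic Veh replicate 2. The lone library was then assumed to vary like the other groups. Scaling by library size only gave 1693 raised and 1782 lowered, a raised share of 48.7% against 52.2%. Of the genes past 2-fold, 191 raised (of 502) and 66 lowered (of 225) passed a test against a 2-fold change (glmTreat), and 331 raised ones remained in number with a filter of 5 CPM, which tests fewer genes. The difference between responses moved more, with 184 to 245 genes above 0 and 100 to 172 below 0 with 1 library left out (293 and 193 with all), 452 and 318 at an adjusted p under 0.1, and 304 below 0 with DESeq2. The cause was not tested.

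A replicate block gave 1687 raised and 1521 lowered genes, and 243 and 154 for the difference. Deviations of same-numbered Veh and CC libraries correlated at 0.126 over all genes and -0.0295 above 8 CPM, with only 2 pairs, so the numbers were not read as pairing the samples. No called gene changed sign under any alternative. Of 272 called genes recomputed one by one, 212 kept their call in every alternative and 57 lost it with at least 1 library left out. Over the AP-1 letters, the shares of promoters were 16.6%, 6.59% and 9.49% (raised more than 2-fold, all, lowered more than 2-fold) with any listed start, an alternative chosen after the data were seen. Genes below 0.5 CPM, or 32.8 to 37.3 counts, in more than 2 of the 4 libraries were not described.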

Other observations

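The table held 2 records of Nnt, the mitochondrial transhydrogenase gene, that share exon bases: the first went from 2.49 and 3.19 to 8.34 and 8.2 CPM with CC and the second from 8.01 and 5.69 CPM to 0 in both CC libraries. Of the genes described, 612 (4.36%) share exon bases on the same strand with another gene of the table, 17 of them among the 502 raised and 7 among the 225 lowered more than 2-fold. The erythropoietin receptor gene Epor went from 1.51 and 1.85 CPM with Veh to 0 in both CC libraries, with no overlapping record. Usf3 stood at 6.12 and 2.26 CPM in the steatotic Veh libraries, but in normal liver macrophages at 32.9 and 35.8 CPM with Veh and 18.2 and 27.2 CPM with CC. Among 9054 genes with a mean above 8 CPM, 100 differed more than 2-fold between the Veh replicates and 103 between the CC replicates. An example, chosen after its values were seen, was Uvrag, at 45.8 and 46.8 CPM with Veh and 109.7 and 46.2 CPM with CC. Irf1, chosen likewise, stayed under 2-fold between replicates, at 244 and 241 CPM with Veh and 200.2 and 110.3 CPM with CC.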
